A study of Arabidopsis thaliana with 27 samples.

Results

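The CYP706A genes of Arabidopsis thaliana encode a small family of cytochrome P450 enzymes. The 7 members are CYP706A1 (AT4G22690), CYP706A2 (AT4G22710), CYP706A3 (AT5G44620), CYP706A4 (AT4G12300), CYP706A5 (AT4G12310), CYP706A6 (AT4G12320) and CYP706A7 (AT4G12330), out of 34262 gene entries in each count table, and they were taken by gene identifier. The family was selected on a difference of CYP706A1 between libraries of different replicate numbers, which had been seen in earlier results of these data. Values of single genes between replicate numbers are therefore given as a description with no test. Tests of single genes are kept to the comparisons between treatment labels and between cell types.

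Cytochrome P450s are heme enzymes that insert an oxygen atom into small molecules, and in plants they act in the synthesis and breakdown of terpenoids, phenylpropanoids, glucosinolates, fatty acids and hormones. They sit on the endoplasmic reticulum and take electrons from the NADPH-dependent reductases ATR1 and ATR2. CYP706A3 is known to oxidize terpenes in Arabidopsis flowers, where it works beside a terpene synthase. No role was given here to the other members.

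The study sorted 3 root cell types from plants in the Col-0 background that expressed GFP under a cell type marker. The lines were pGL2:GFP for the non-hair epidermis, pCORTEX:GFP for the cortex and the enhancer trap E3754 for the xylem-pole pericycle. Roots received flg22 (a peptide of bacterial flagellin), Pep1 (a plant peptide released on damage) or H2O as mock, and each cell type had 3 libraries per label, 27 in all. The sample labels give 1 mM peptide for 1 h on plants grown for 10 days, whereas the series design gives 1 µM and cells taken 2 h after treatment, and the study's methods give a longer growth period. All cells, mock included, had been through enzymatic digestion to protoplasts before sorting.

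Each library held 4172741 to 17188823 reads in genes. CPM values are read counts scaled to library size with TMM factors, over the nuclear genes left after removal of rRNA and ribosomal protein genes. Taken as sums, the markers of the sorted type stood highest in their own libraries. The summed level of GL2, WER, TTG2 and MYB23 was 226.8 to 610.0 CPM in the epidermis. In the cortex this level was 56.39 CPM or less and in the pericycle 59.28 CPM or less. That of PHO1, HMA4 and BOR1 was 604.8 CPM or more in the pericycle against 38.29 CPM or less in the cortex and 15.7 CPM or less in the epidermis. The cortex gene CO2 (AT1G62500) had no read in any of the 9 cortex libraries, although AED3 (AT1G09750) and C/VIF2 summed to at least 148.8 CPM there. CO2 did have 53 reads in 1 pericycle library and 1 read in 1 epidermis library. The 3 cortex markers together were at 7.68 CPM or less in the epidermis but reached 142.1 CPM in the pericycle, close to the lowest cortex library. The root cap genes SMB and BRN1 reached 49.34 to 119.2 CPM in the epidermis, and the phloem gene APL was read at 10.41 CPM or more in the pericycle. The xylem gene VND7 had a read in only 2 of the 9 pericycle libraries. The summed endodermis genes SCR, CASP1 and MYB36 reached 46.18 CPM in the cortex, 44.1 CPM in the pericycle and 8.98 CPM in the epidermis. The root hair genes EXP7, COBL9 and RHD6 together reached 23.5, 56.33 and 14.74 CPM in the same order.

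The treatment labels did not order the elicitor markers. FRK1 (a receptor-like kinase gene induced by flg22), MYB51 (a regulator of indole glucosinolates) and PER5 (AT1G14550, a peroxidase gene) were measured in all libraries. In the epidermis their summed level was 25.4 to 58.44 CPM in the 3 libraries numbered 1, 324.6 to 726.3 CPM in those numbered 2 and 148.6 to 238.4 CPM in those numbered 3, whatever the label. In the cortex the libraries numbered 1 held 17 to 19.51 CPM and all the others at least 158.6 CPM. In the pericycle the corresponding values were 24.3 to 26.87 CPM and at least 121.9 CPM. Not every marker followed the sum. FRK1 overlapped between numbers 1 and 3 in the cortex and in the pericycle, where it was at 0 to 7.86 CPM and 0 to 7.42 CPM. MYB51 overlapped between numbers 1 and 2 in the pericycle, at 9.5 to 21.72 CPM and 4.94 to 49.21 CPM. Libraries of different labels overlapped in every cell type, so groups are called below by the label they carry. The libraries came from 7 sequencing pools, and in 6 of the 9 sets of one cell type and label all 3 numbers were sequenced in the same pool. Labels and pools, in contrast, cannot be told apart for most comparisons.

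The members occupy 3 places in the genome (build TAIR10.1). CYP706A1 lies at chr4:11929359-11931750 and CYP706A2 at chr4:11934969-11936823, both on the plus strand and each in a single exon. The LOB domain gene LBD32 lies between them. CYP706A4, CYP706A5, CYP706A6 and CYP706A7 form a run on the minus strand of the same chromosome, at chr4:7307737-7309895, chr4:7309898-7312684, chr4:7313779-7316871 and chr4:7317508-7319774. CYP706A3 stands alone at chr5:17997597-18000451 on the minus strand, next to the terpenoid cyclase gene AT5G44630. These 5 genes have 2 exons each, and no annotated gene overlapped any member.

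The sequences show which members could share reads. CYP706A1 and CYP706A2 were identical over 97.47% of their aligned coding bases and shared an unbroken run of 873 bases. Of all 100-base stretches of their exons, 39.86% in CYP706A1 and 52.05% in CYP706A2 recurred in the other gene. CYP706A5 and CYP706A6 were 90.62% identical, with a longest shared run of 268 bases, and 7.27% and 5.95% of their stretches recurred. No stretch of CYP706A3, CYP706A4 or CYP706A7 recurred elsewhere. CYP706A4 was 86.07% identical to CYP706A5 and 87.11% to CYP706A6, CYP706A3 was 77.78% identical to CYP706A7, and all other pairs lay between 62.8% and 67.97%. The tables hold a separate entry for reads that did not map uniquely (31.107% to 66.234%), so reads from within shared stretches could be missing from both genes of a pair.

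The 30 coding bases around the codon of the cysteine that binds the heme iron are shown because they are the part of a P450 gene that changes least. So short a window does not group the members as the whole coding sequences do. Over the coding bases CYP706A7 was nearer to CYP706A3 (77.78%) than to CYP706A4 (67.82%), but in this window it is nearer to CYP706A4. The cysteine codon is in capitals. CYP706A1 and CYP706A2 did not differ in this window, nor did CYP706A5 and CYP706A6. Counted from CYP706A1, the window differed at 9 bases in CYP706A3, at 8 in CYP706A4, CYP706A5 and CYP706A6 and at 7 in CYP706A7.
CYP706A1, chr4:11931305-11931334, plus strand: tttgggtcaggaaggaggattTGTgcggcg
CYP706A2, chr4:11936403-11936432, plus strand: tttgggtcaggaaggaggattTGTgcggcg
CYP706A3, chr5:17998091-17998120, minus strand: tttgggtctggtcgtaggataTGCgtggga
CYP706A4, chr4:7308199-7308228, minus strand: tttggatctggccggagaattTGTgccggt
CYP706A5, chr4:7310781-7310810, minus strand: tttggatctggcaggagaattTGCgcaggt
CYP706A6, chr4:7315122-7315151, minus strand: tttggatctggcaggagaattTGCgcaggt
CYP706A7, chr4:7317959-7317988, minus strand: tttggatctggccggagaattTGTgcggga

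CYP706A1 and CYP706A2 made up 85.84% of the 35629 reads of the family. They were measured in every cell type, and the libraries that differed in them were those of different replicate numbers. In the epidermis CYP706A1 was at 0 CPM, 0.635 CPM and 0.941 CPM in the libraries numbered 1 of the mock, flg22 and Pep1 labels. In those numbered 2 it was at 110.7, 89.0 and 38.9 CPM, and in those numbered 3 at 253.8, 180.4 and 209.6 CPM. The libraries of the 3 numbers did not overlap, while each label held one library of each level.

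The cortex gave the same order. CYP706A1 stood at 0.968, 2.63 and 5.03 CPM in the cortex libraries numbered 1 of the mock, flg22 and Pep1 labels. It stood at 46.2, 41.1 and 54.5 CPM in those numbered 2 and at 399.3, 276.4 and 170.0 CPM in those numbered 3. In the pericycle it was at 4.67, 0.814 and 0 CPM in the libraries numbered 1, at 16.5, 4.10 and 33.3 CPM in those numbered 2 and at 139.8, 215.0 and 102.6 CPM in those numbered 3. Here numbers 1 and 2 overlapped and number 3 stood above both. The 2 libraries at 0 had no read of CYP706A1, where 3 reads would have corresponded to 0.217 to 1.11 CPM over the libraries of the series.

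CYP706A2 behaved likewise. In the epidermis it was at 0.443, 2.54 and 2.32 CPM in the libraries numbered 1 of the mock, flg22 and Pep1 labels, at 128.6, 60.6 and 41.5 CPM in those numbered 2 and at 228.2, 147.6 and 207.1 CPM in those numbered 3. In the cortex the values were 2.49, 0.292 and 4.44 CPM for number 1, 26.9, 33.2 and 19.4 CPM for number 2 and 232.4, 105.6 and 63.4 CPM for number 3. In the pericycle they were 13.7, 7.06 and 4.05 CPM, then 28.6, 24.3 and 16.9 CPM, then 156.7, 135.4 and 130.9 CPM. The 3 numbers did not overlap in any cell type, and in all 9 sets of cell type and label the library numbered 1 was lowest and that numbered 3 highest, as also for CYP706A1.

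**Figure D1:**
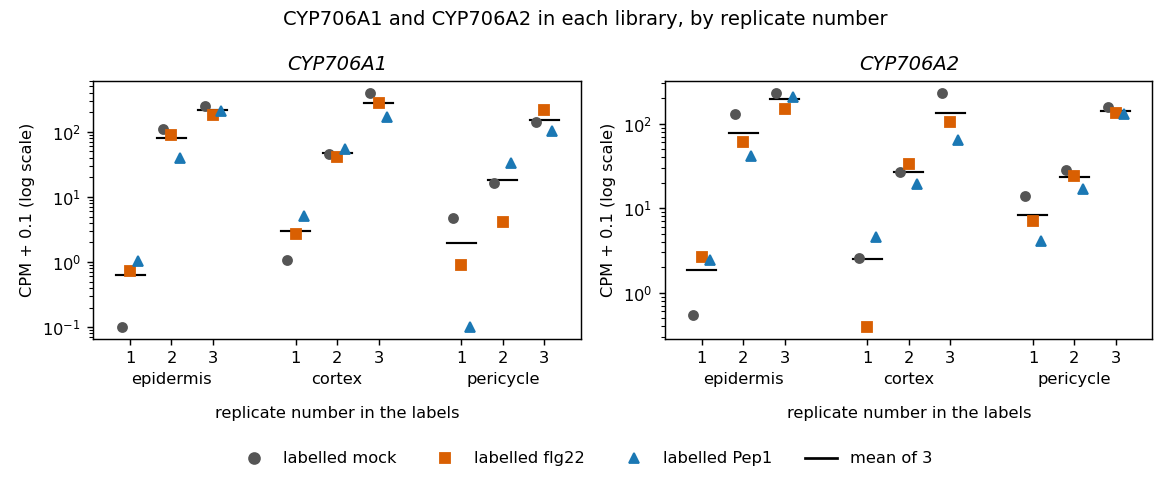
CYP706A1 and CYP706A2 in each of the 27 libraries, as CPM plus 0.1 on a log axis, against the replicate number of the library within each sorted cell type. Symbols give the label and bars the mean of the 3 libraries of a number: in the epidermis CYP706A1 averaged 0.525 CPM in number 1, 79.5 CPM in number 2 and 214.6 CPM in number 3.

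On the log2 scale, CYP706A1 was higher in number 3 than in number 1 by 8.51 ± 0.77 (SE) in epidermis, 6.70 ± 0.53 in cortex and 6.62 ± 0.99 in pericycle. CYP706A2 was higher by 6.75 ± 0.69, 5.64 ± 0.61 and 4.26 ± 0.52 in the same order. Number 2 stood above number 1 by 7.03 ± 0.75 for CYP706A1 in epidermis, 4.17 ± 0.50 in cortex and 3.25 ± 0.91 in pericycle, and for CYP706A2 by 5.36 ± 0.66, 3.51 ± 0.59 and 1.58 ± 0.47. Between numbers 3 and 2 the CYP706A1 differences were 1.48 ± 0.53, 2.52 ± 0.40 and 3.37 ± 0.88, and those of CYP706A2 were 1.40 ± 0.52, 2.13 ± 0.48 and 2.68 ± 0.48. Without the epidermis library labelled Pep1 and numbered 1, the CYP706A1 difference between numbers 3 and 1 was 9.98 ± 0.89 there. These are the contrasts the family was selected on and carry no test.

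The joint level of both genes, which does not depend on how shared reads were split, kept the 3 numbers apart in each cell type. In the epidermis it was at most 3.26 CPM in number 1, 80.4 to 239.3 CPM in number 2 and 328.1 to 482.0 CPM in number 3.

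Several values moved with the number beside these genes, and the shift was not confined to the family. Over all genes, the fits called 855 of 16032 between numbers 3 and 1 in the epidermis (edgeR adjusted p under 0.05). They called 2006 of 16380 genes in the cortex and 103 of 17696 in the pericycle. The share of all genes without overlap between numbers was not counted. In each of the 6 sets sequenced in 1 pool the library numbered 1 was lowest in CYP706A1 and that numbered 3 highest, and cortex libraries labelled flg22, for example, held CYP706A1 at 2.63, 41.1 and 276.4 CPM. In the cortex depth moved in the same order, with medians of 5742286, 9973642 and 14149915 reads in genes for numbers 1, 2 and 3. The corresponding medians were 12675668, 7967631 and 11523035 in epidermis and 10610936, 13182958 and 8015286 in pericycle libraries, which is another order than that of CYP706A1. The 3 elicitor markers together were lowest in number 1 in each cell type, though not each marker singly, as given above. In the epidermis the summed non-hair markers were 371.5 to 610.0 CPM in number 1 and 226.8 to 320.3 CPM in number 3, and the summed root cap markers 49.34 to 119.2 CPM and 56.13 to 62.39 CPM, with all genes of both lists detected. In the cortex the summed cortex markers were 226.8 to 397.5 CPM in number 1 and 148.8 to 324.7 CPM in number 3, with 2 of 3 genes detected and CO2 at 0. In the pericycle the summed pericycle markers were 1019 to 1928 CPM and 604.8 to 1147 CPM, with all 3 detected. The part of depth and of these shifts in the CYP706A values was not tested. In such bulk libraries fewer cells of a type and less RNA per cell cannot be told apart.

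CYP706A4 followed another pattern. In the epidermis it stood at 20.4, 16.3 and 10.9 CPM in the libraries numbered 1 of the mock, flg22 and Pep1 labels, at 6.89, 8.98 and 11.4 CPM in those numbered 2 and at 7.15, 6.25 and 5.90 CPM in those numbered 3. Number 3 lay below number 1 without overlap, by a log2 difference of -1.30 ± 0.37. In the cortex the level was 21.3, 21.9 and 7.69 CPM in number 1 and 13.4, 17.5 and 17.8 CPM in number 3, which overlapped (log2 difference -0.15 ± 0.44). In the pericycle it ranged from 0 CPM in the library labelled flg22 and numbered 3 to 27.6 CPM in that labelled Pep1 and numbered 1, and all pairs of numbers overlapped.

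CYP706A7 stood apart in number 1 in the cortex. There it was at 1.24, 0 and 0.296 CPM in the libraries numbered 1 of the mock, flg22 and Pep1 labels, at 4.57, 5.62 and 10.5 CPM in those numbered 2 and at 2.72, 7.29 and 11.02 CPM in those numbered 3. The log2 differences from number 1 were 3.27 ± 0.91 for number 2 and 3.23 ± 0.93 for number 3. Without the library labelled mock and numbered 1 they were 5.78 ± 1.03 and 5.65 ± 1.02. The cortex libraries numbered 1 held 9, 0 and 1 reads in the order mock, flg22 and Pep1. In them 3 reads would be 0.415, 0.877 and 0.887 CPM, so the size of these differences rests on few reads. In the epidermis number 2 lay above the other numbers, and the difference between numbers 3 and 1 was -0.02 ± 0.46. In the pericycle the latter was 2.63 ± 1.71 with overlapping libraries.

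**Figure D2:**
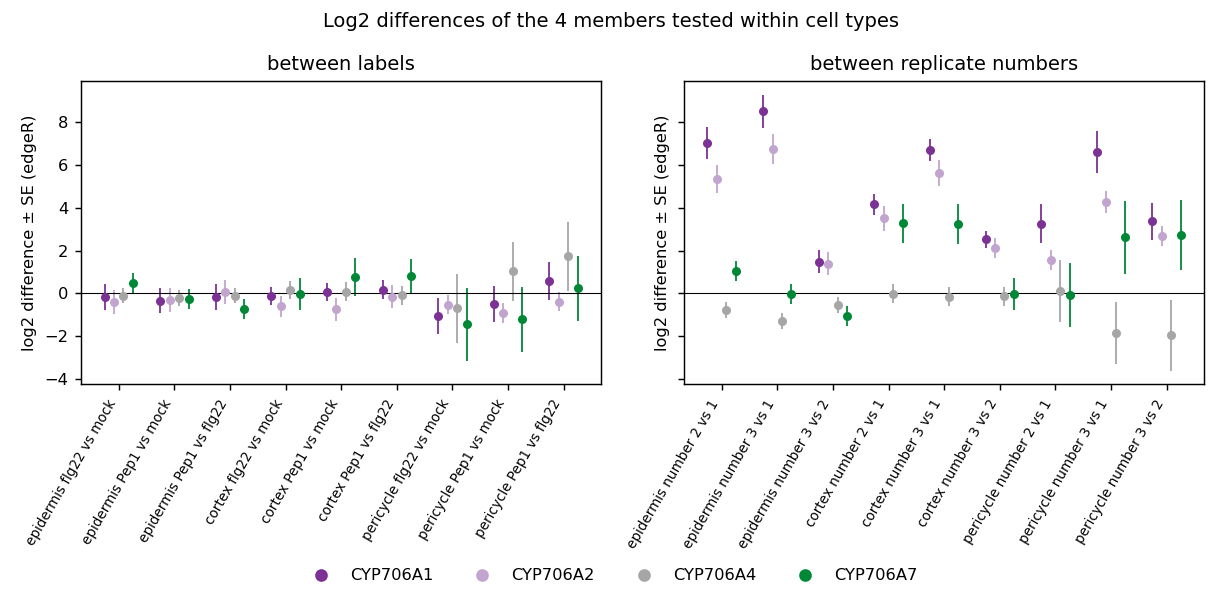
Log2 differences with their standard errors for CYP706A1, CYP706A2, CYP706A4 and CYP706A7, on the left between treatment labels and on the right between replicate numbers, for 9 contrasts each. All label differences lie within 1.73 of 0, whereas CYP706A1 reaches 8.51 between numbers 3 and 1 in the epidermis.

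The comparison of labels asks whether the family differs between libraries labelled flg22, Pep1 and mock in each cell type. The sum of the elicitor markers moved with the replicate number and not with the label. These tests therefore compare libraries by the label they carry, and whether labels and numbers match the treatments given was not tested. The number, with which that sum moved, enters the model as a block. No member passed the test in any of the 9 label comparisons (edgeR quasi-likelihood test, replicate number as a block), and none reached an unadjusted p under 0.05. DESeq2 with the same model called none either. The 4 members with enough reads were CYP706A1, CYP706A2, CYP706A4 and CYP706A7. Their smallest adjusted p was 0.488, for CYP706A7 in the epidermis libraries labelled Pep1 against those labelled flg22 (log2 fold change -0.73 ± 0.46), and their smallest unadjusted p was 0.0716. The share of all genes called was 0% in the 3 epidermis comparisons, 0% for flg22 against mock and for Pep1 against flg22 in the cortex and in the pericycle, 0.287% for Pep1 against mock in the cortex (47 of 16380 genes) and 0.0113% for Pep1 against mock in the pericycle. The 47 genes became 0 without the replicate block, 0 on leaving out the cortex library labelled mock and numbered 1 or any of the 3 labelled Pep1, and up to 276 on leaving out that labelled flg22 and numbered 2.

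The spread between libraries of one label was wide for both leading members. In the epidermis CYP706A1 averaged 121.5 CPM in libraries labelled mock, 90.0 CPM in those labelled flg22 and 83.2 CPM in those labelled Pep1, each from values near 0 to at least 180.4 CPM. With the number in the model, the log2 fold change was -0.17 ± 0.59 for flg22 and -0.33 ± 0.60 for Pep1 (edgeR adjusted p = 0.955 and 1.00). For CYP706A2 it was -0.38 ± 0.57 and -0.32 ± 0.56 (edgeR adjusted p = 0.909 and 1.00).

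In the cortex the log2 fold change of CYP706A1 was -0.13 ± 0.42 for flg22 and 0.05 ± 0.42 for Pep1, and that of CYP706A2 was -0.60 ± 0.50 and -0.74 ± 0.53. In the pericycle CYP706A1 gave -1.07 ± 0.84 and -0.49 ± 0.85, and CYP706A2 -0.52 ± 0.46 and -0.90 ± 0.47. None of these passed the edgeR test, with adjusted p between 0.544 and 1.00. The median log2 fold change of all genes tested was -0.13 for flg22 against mock in the pericycle and within 0.05 of 0 for flg22 or Pep1 against mock elsewhere.

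CYP706A4 and CYP706A7 had no call either. Their log2 fold changes against mock were -0.10 ± 0.37 and 0.48 ± 0.46 for flg22 in the epidermis, -0.19 ± 0.37 and -0.25 ± 0.46 for Pep1 in the epidermis, and 0.16 ± 0.44 and -0.04 ± 0.75 for flg22 in the cortex. In the cortex CYP706A4 was at 7.69 to 23.35 CPM in libraries labelled Pep1 and 13.35 to 21.29 CPM in those labelled mock. CYP706A7 was at 0.296 to 11.02 CPM and 1.24 to 4.57 CPM there, and neither was called. In the pericycle the standard errors of the log2 fold changes of both genes were 1.38 or more for both peptides. The interaction tests called no member for a label difference that varied between cell types. For flg22, 0 of the 4 members were called beside 0.0469% of genes, and for Pep1 0 were called beside 0% of genes. No member was at an unadjusted p under 0.05 in these tests.

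The other cytochrome P450 genes gave the background of the superfamily. Of 217 further genes with a P450 symbol, 87 were tested in epidermis, 87 in cortex and 114 in pericycle libraries, and none was called in a label comparison. For flg22 against mock, their median log2 fold change in epidermis libraries was 0.07, beside -0.01 over all genes tested. Cortex libraries gave 0.24 beside -0.01. The gap was widest for pericycle libraries, with 0.29 beside -0.13.

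Of the reductases that supply electrons to P450s, ATR2 was higher in number 3 than in number 1 without overlap in each cell type, and ATR1 had smaller differences. ATR2 was at 169.5 to 270.0 CPM in the epidermis libraries numbered 1, 706.3 to 1986 CPM in those numbered 2 and 1884 to 2234 CPM in those numbered 3. Its log2 difference between numbers 3 and 1 was 3.35 ± 0.41 in epidermis, 1.72 ± 0.28 in cortex and 1.67 ± 0.31 in pericycle. ATR1 was at 186.6 to 263.4 CPM in the epidermis libraries numbered 1 and at 222.2 to 258.3 CPM in those numbered 3, and its log2 differences were 0.12 ± 0.22, 0.25 ± 0.21 and 0.22 ± 0.42. Neither gene was called between labels.

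Cell types were compared over the libraries labelled mock. CYP706A7 was highest in the epidermis, where it stood at 27.4, 63.6 and 11.1 CPM in libraries numbered 1, 2 and 3. In the cortex it was at 1.24, 4.57 and 2.72 CPM, and in the pericycle at 9.88, 9.09 and 3.08 CPM. All 3 epidermis libraries lay above all others. Here and below, the share of all genes without overlap between cell types was not counted. The log2 fold change was 3.30 ± 0.62 against the cortex (edgeR adjusted p = 0.00449) and 2.00 ± 0.57 against the pericycle (edgeR adjusted p = 0.0315). The second call was lost on leaving out the epidermis library numbered 1 (adjusted p = 0.152) or 2 (0.191), the pericycle library numbered 2 (0.142) or 3 (0.108), without the replicate block (0.0693) and without TMM scaling (0.0667).

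CYP706A7 was the only member called in either contrast, beside 14.1% of all genes for epidermis against cortex and 18.5% for epidermis against pericycle. Over all labels the 9 epidermis libraries ranged from 11.08 to 63.6 CPM and the 9 cortex libraries from 0 to 11.02 CPM. They did not overlap, but the lowest epidermis library (79 reads) and the highest cortex library (49 reads) were nearly equal. The pericycle reached 29.4 CPM in the library labelled flg22 and numbered 3. The epidermis libraries were sequenced in other pools than the cortex and pericycle libraries and had fewer reads that did not map uniquely (median 36.4% against 59.7% in the cortex and 64.2% in the pericycle), so cell type and pool cannot be told apart here.

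**Figure D3:**
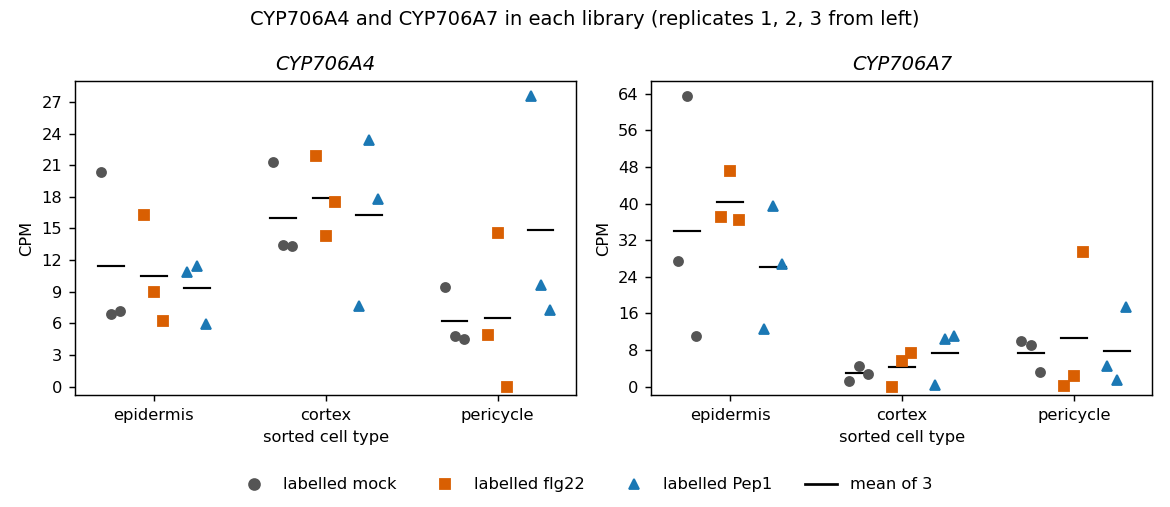
CPM of CYP706A4 and CYP706A7 in each library by sorted cell type and label, with bars for the mean of 3 libraries and the replicates 1 to 3 from left to right. The lowest epidermis value of CYP706A7 is 11.1 CPM and the highest cortex value 11.02 CPM, while the CYP706A4 values of the cell types overlap when all labels are taken.

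CYP706A4 was at 21.3, 13.5 and 13.4 CPM in the mock-labelled cortex libraries, 20.4, 6.89 and 7.15 CPM in the epidermis and 9.45, 4.83 and 4.48 CPM in the pericycle. The cortex libraries lay above the pericycle libraries without overlap, but the log2 fold change of 1.41 ± 0.47 did not pass the test (edgeR adjusted p = 0.0849). None of CYP706A1, CYP706A2, CYP706A4 and CYP706A7 was called between cortex and pericycle, beside 7.46% of all genes. CYP706A1 and CYP706A2 were not called between any cell types, with log2 fold changes between -0.84 ± 0.91 and 0.75 ± 0.89.

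On the scale of CPM per kilobase of exon, CYP706A1 and CYP706A2 had the highest medians of the family in the epidermis, at 37.2 and 32.7. CYP706A7 followed at 18.8 and CYP706A4 at 4.42. In the cortex the medians were 19.3 for CYP706A1, 14.5 for CYP706A2, 8.61 for CYP706A4 and 2.36 for CYP706A7, and in the pericycle 6.88, 13.1, 3.59 and 2.28. The ranges of CYP706A1 and CYP706A2 spanned from near 0 to at least 84.5 in every cell type, so their place in the order depended on the library. Reads missing from shared stretches could lower these values for both genes.

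The other members were near the limit of detection. CYP706A3 had 1 read in all, in the pericycle library labelled flg22 and numbered 2, and its neighbour AT5G44630 had none. CYP706A6 had 62 reads, of which 8 of 9 epidermis libraries held 1 to 23, 1 cortex library held 2 and no pericycle library held any. CYP706A5 had 81 reads. In the pericycle it had 12, 17 and 20 reads in the libraries labelled mock, 8, 9 and 0 in those labelled flg22 and 1, 0 and 0 in those labelled Pep1, against at most 5 in any epidermis and 1 in any cortex library.

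CYP706A3 and CYP706A6 did not pass the filter on low counts in any comparison, and CYP706A5 passed it only between cell types. In the mock-labelled pericycle CYP706A5 averaged 1.90 ± 0.80 CPM (SD, n = 3). No mock-labelled cortex library had a read of it, and 3 reads in such a library would be 0.415 CPM or less. The pericycle mean was 4.57-fold above that highest value, and the lowest of the 3 pericycle libraries was 3.07-fold above it. Since CYP706A5 passed the filter only through the mock-labelled pericycle libraries, its differences between cell types are given without a test. Its pericycle libraries labelled flg22 and Pep1 all lay below those labelled mock, but with the filter removed neither difference passed the test (edgeR adjusted p = 0.976 and 1.00).

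**Figure D4:**
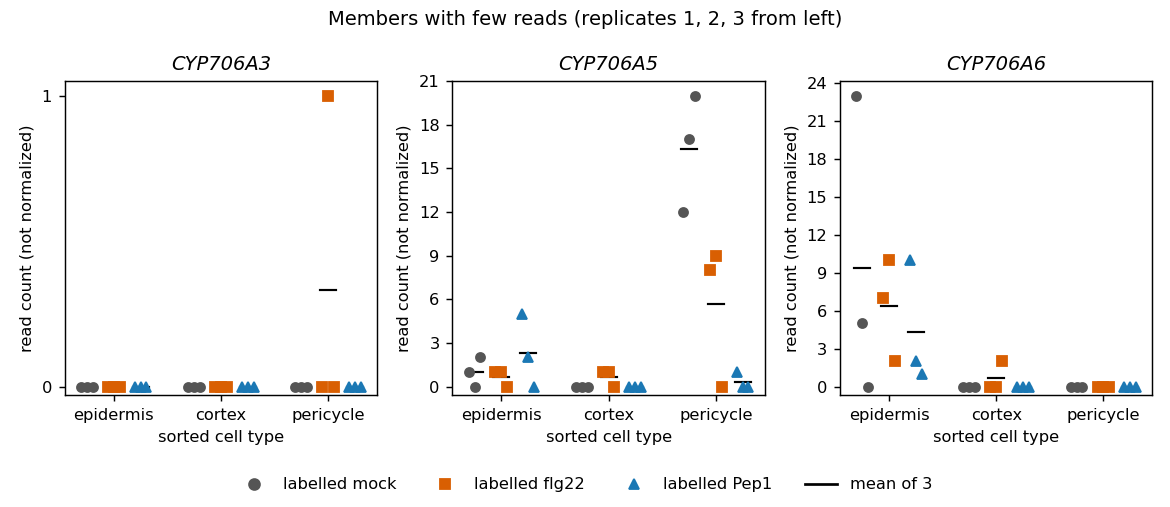
Read counts, not normalized, of CYP706A3, CYP706A5 and CYP706A6 in each library by sorted cell type and label, with bars for the mean of 3 libraries. The highest counts are 20 for CYP706A5, in a mock-labelled pericycle library, and 23 for CYP706A6, in a mock-labelled epidermis library.

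Among the other P450 genes, 106 were tested between cell types. Of these, 12 were higher and 14 lower in the epidermis than in the cortex, and 16 higher and 29 lower in the epidermis than in the pericycle. In the cortex 8 were higher and 18 lower than in the pericycle. Together 26, 45 and 26 of the 106 were called in these comparisons, beside 14.1%, 18.5% and 7.46% of all genes tested. The largest differences between epidermis and cortex were those of CYP71B34 (log2 fold change -5.89 ± 0.68), CYP98A3 (-5.62 ± 0.48), which hydroxylates phenylpropanoid esters on the way to lignin, and CYP71A28 (-5.33 ± 1.49). Against the pericycle, the largest were CYP735A2, which makes trans-zeatin type cytokinins, CYP71A27 and CYP78A8. Their log2 fold changes were -10.77 or below in the epidermis and -10.68 or below in the cortex. The P450 genes named here were picked by size among those called. Their read counts are not given, so the sizes are a description. ATR1 was higher in the epidermis than in the pericycle (log2 fold change 1.14 ± 0.28, edgeR adjusted p = 0.0168).

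Genes whose levels most resembled the members were found by the Pearson correlation of log2 CPM over the 27 libraries, which share cell types, numbers and pools and are given without a test. CYP706A1 was most like GSTF6 (r = 0.952), a glutathione transferase gene, the leucine-rich repeat gene AT1G33590 (0.946) and CYP81F2 (0.929), a P450 that hydroxylates indole glucosinolates. CYP706A2 was most like CYP706A1 (0.914), FQR1 (0.911), a flavodoxin-like quinone reductase gene, and the aspartyl protease gene AT1G03220 (0.894). Only 5 genes stood closer to CYP706A1 than CYP706A2 did.

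GSTF6, CYP81F2 and FQR1 were picked for their likeness to CYP706A1 or CYP706A2, so an order by number follows from the choice and their values are a description. GSTF6 was at 14.2 to 16.3 CPM in the epidermis libraries numbered 1, 155.7 to 445.5 CPM in those numbered 2 and 432.7 to 514.1 CPM in those numbered 3. CYP81F2 was at most 2.03 CPM in the epidermis libraries numbered 1 and 42.4 to 90.9 CPM in those numbered 3, and in the cortex at most 2.92 CPM and 72.9 to 346.7 CPM. FQR1 ranged from 77.4 to 120.5 CPM in the epidermis libraries numbered 1 and from 385.7 to 495.0 CPM in those numbered 3.

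**Figure D5:**
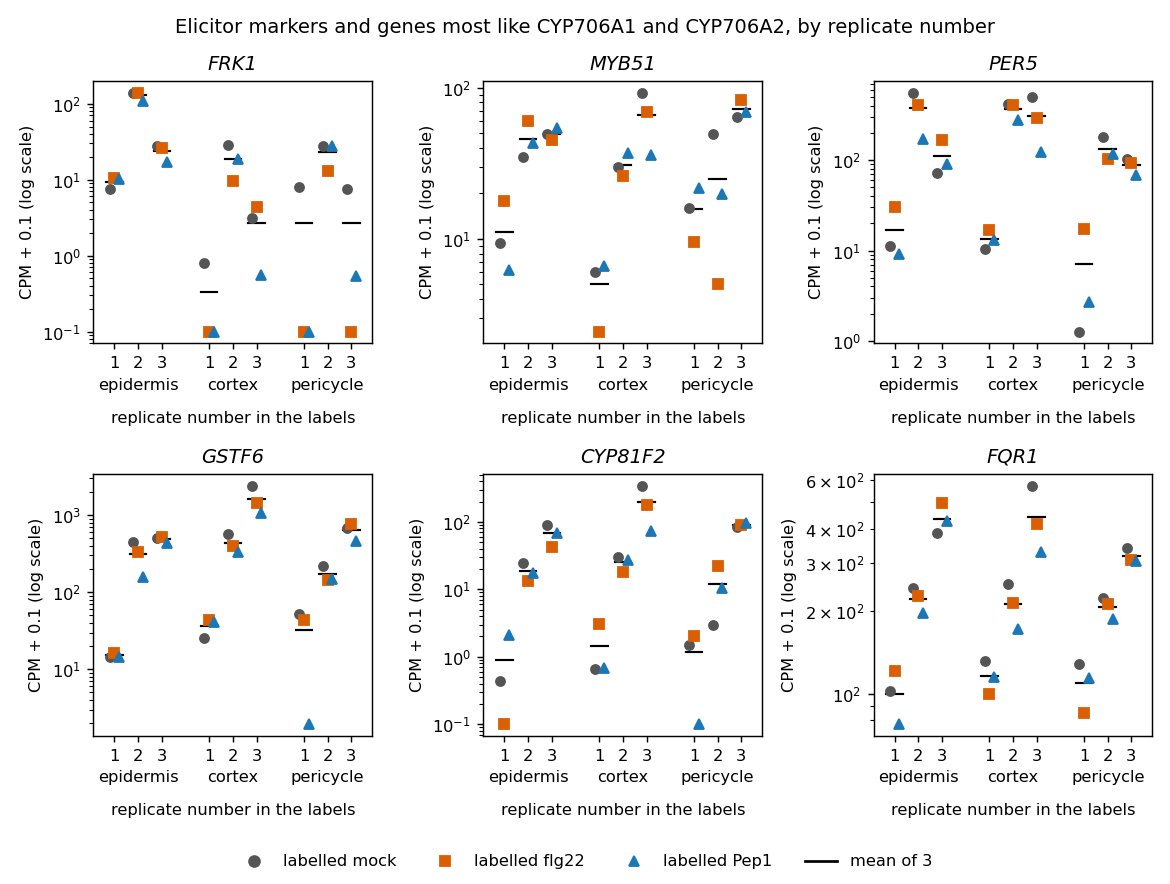
The elicitor markers FRK1, MYB51 and PER5 and the genes GSTF6, CYP81F2 and FQR1 in each library, as CPM plus 0.1 on a log axis, by replicate number within each sorted cell type. Symbols give the label and bars the mean of 3 libraries: FRK1 peaks in the epidermis libraries numbered 2 (109.5 to 138.2 CPM), whereas FQR1 is highest in those numbered 3 (385.7 to 495.0 CPM).

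CYP706A4 was most like the dehydrogenase gene AT1G79870 (r = 0.892), AT1G34010 (0.873) and the peroxisomal membrane protein gene AT4G14305 (0.867). CYP706A7 was most like RRS1 (0.876), an intracellular immune receptor gene, the berberine bridge type oxidase gene AT1G30720 (0.870) and AT4G19520 (0.865), another gene of the TIR-NBS-LRR class. Between members, r was 0.418 for CYP706A7 with CYP706A2, 0.333 for CYP706A7 with CYP706A1 and -0.381 and -0.447 for CYP706A4 with CYP706A1 and CYP706A2.

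Most genes next to the members had few reads. LBD32, between CYP706A1 and CYP706A2, had 1 read in 1 epidermis and in 1 cortex library and none in the pericycle, and MYB85 on the other side of CYP706A1 was read in 9 of the 27 libraries at 1.24 CPM or less. AT4G22720, downstream of CYP706A2, was at 6.99 to 24.7 CPM in the epidermis libraries numbered 1 and at 16.4 to 29.7 CPM in those numbered 3 (log2 difference 0.53 ± 0.43), but in the pericycle at 12.2 to 18.0 CPM and 48.5 to 123.3 CPM (2.48 ± 0.52). On the side of CYP706A4 the amine oxidase gene AT4G12290 stayed at 9.67 CPM or less, and the P450 fragment AT4G12334 beyond CYP706A7 had reads in 2 epidermis libraries only. MAP18, a neighbour of CYP706A3, was higher in the epidermis than in the cortex (log2 fold change 2.29 ± 0.33, edgeR adjusted p = 0.00102).

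The 250 bases before the annotated start of each member were scanned in both directions (either strand) for the W-box, a core element bound by WRKY transcription factors, in the forms TTGACC and TTGACT. CYP706A1 and CYP706A2 held one each and the other 5 members held none, beside 28.41% of the 27431 protein-coding promoters of the same length. With 2 of 7 members the family lay near this share of all promoters. The sequences of the 2 members with a match are shown with the W-box in capitals, and a link between the W-box and their levels was not tested. Counted along the printed strand, the leftmost base in capitals lies 84 bases before the start in CYP706A1 and 144 bases before it in CYP706A2. In CYP706A1 the W-box reads on the minus strand, so this leftmost base is its last. A match describes letters in this window and not a bound site.
CYP706A1, chr4:11929109-11929358, plus strand: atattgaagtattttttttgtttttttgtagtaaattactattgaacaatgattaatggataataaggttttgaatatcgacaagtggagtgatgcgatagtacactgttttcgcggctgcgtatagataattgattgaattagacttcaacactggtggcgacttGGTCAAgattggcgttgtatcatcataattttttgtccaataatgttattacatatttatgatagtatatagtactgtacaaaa
CYP706A2, chr4:11934719-11934968, plus strand: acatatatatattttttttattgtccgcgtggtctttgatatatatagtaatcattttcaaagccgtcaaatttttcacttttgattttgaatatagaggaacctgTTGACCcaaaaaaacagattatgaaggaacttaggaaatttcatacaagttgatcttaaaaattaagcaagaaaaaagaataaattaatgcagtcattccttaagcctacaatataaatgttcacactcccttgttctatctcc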

How the data were processed

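RNA from sorted GFP-positive protoplasts was sequenced in 27 libraries, 3 for each of 3 cell types and 3 labels. The deposited values are raw read counts per gene. Per the labels the reads were aligned to TAIR10 with TopHat2 2.0.14 and counted with HTSeq, whereas the study's methods name STAR and LiBiNorm without strand. 285 organelle entries, 4 rRNA genes and 330 ribosomal protein genes were left out, as in the study. Library totals left for testing were 2331354 to 12333266 counts. Each cell type was fitted with edgeR 4.0.16 (R 4.3.3; TMM, filterByExpr with a minimum count of 10, quasi-likelihood test) on label and replicate number, cell types over the mock-labelled libraries, and interactions over all 27. P values were adjusted by Benjamini-Hochberg over all genes tested and called at 0.05. The study's methods state 3 independent experiments per marker line and model the replicate as a batch. Alternatives used DESeq2 1.42.0, other scalings, filters, blocks, pools and omitted libraries. CPM floors stand for 3 reads and cover counting error only. Scripts were tested on simulated counts. The named genes were the members, their neighbours, the 3 genes most correlated with each tested member, P450 genes by a rule of size, both reductases, and marker genes. The members and lists were chosen with earlier results of these data known. Sequences were read from the RefSeq TAIR10.1 genome.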

Additional observations from a re-analysis of the deposited data

How the results depend on the processing

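No member was called between labels or in an interaction test under any of the 212 alternative fits of these results. CYP706A7 was called between epidermis and cortex under all 17 alternatives. Between epidermis and pericycle the 1 member called became 0 with total counts without TMM and with no replicate block, and leaving out 1 mock-labelled library gave 0 to 1. Between cortex and pericycle the 0 members called became 2 with DESeq2 (CYP706A4, adjusted p = 0.0353, and CYP706A5), 1 with total counts without TMM (CYP706A5) and 1 with all 27 libraries in the fit (CYP706A4, 0.0498). CYP706A5 passed the filter only through the mock-labelled pericycle libraries, so nothing is read from its entries. The cause was not tested.

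Of 531 alternative values of the differences between replicate numbers, 524 moved by less than the spread over labels, which describes the contrasts that chose the family. With the counts of CYP706A1 and CYP706A2 summed (chosen after seeing the data), the log2 difference between numbers 3 and 1 was 7.46 ± 0.76 (SE) in the epidermis. Over all genes, DESeq2 called 795 in place of 47 for Pep1 against mock in the cortex, 55 in place of 2 in the pericycle, and 294 in place of 0 for flg22 against mock in the pericycle, with no member among them. Leaving out 1 library gave 0 to 276 for Pep1 against mock in the cortex, 0 to 6 in place of 2 in the pericycle, 0 to 14 in place of 0 for flg22 against mock in the pericycle and 0 to 125 in place of 9 for the flg22 interaction. Between cell types it gave 1198 to 2714 in place of 2497 for epidermis against cortex, 1523 to 3438 in place of 3277 for epidermis against pericycle and 312 to 1986 in place of 1324 for cortex against pericycle, where the fit without the block gave 584, DESeq2 2958, no filter on low counts 2165 and all 27 libraries 8163. All 27 libraries gave 7446 for epidermis against cortex and 8702 for epidermis against pericycle, and the former became 1532 without the block. With no filter on low counts Pep1 against mock gave 822 genes in the cortex and 27 in the pericycle, and with ribosomal genes kept 118 and 0. Same-numbered libraries deviated from their label means with r from 0.026 to 0.415 over 9 pairs in cortex, -0.176 to 0.589 in epidermis and -0.048 to 0.171 in pericycle, against -0.374 to 0.039, -0.587 to 0.226 and -0.132 to 0.073 over the 18 pairs of different numbers. Not every same-numbered pair was above 0.1, so these values alone do not establish that the numbers pair the libraries. The main fits still held the number as a block, since the study's methods model the replicate as a batch. Without the replicate block no member was called between labels. Fits within 1 sequencing pool could be made only for flg22 against mock in the epidermis.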
